A study of Xenopus laevis with 5 samples.

Results

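The genes described here are those named as proteins of the mitochondrial ribosome in Xenopus laevis, the African clawed frog. They were taken by name from the deposited annotation table: every gene model whose symbol, without its .L or .S ending, begins with mrpl or mrps followed by a digit. That gave 106 gene models of 45099, 61 with large-subunit names (mrpl) and 45 with small-subunit names (mrps). Xenopus laevis is allotetraploid, and its chromosomes form a long (L) and a short (S) subgenome, so that many genes exist as 2 homeologous copies. The members comprised 61 L copies, 44 S copies and 1 model with neither ending, under 76 distinct names, and 29 names had both copies.

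MOV10 morphants had been injected with 18 ng of a translation-blocking MOV10 morpholino and control embryos with 18 ng of a control morpholino, and all carried the label of stage 10.5, the early gastrula. MOV10 is an RNA helicase associated with microRNA-guided silencing, and the series asks what its loss does to development. RNA sequencing of whole embryos was analysed for 2 MOV10 morpholino libraries, numbered 2 and 3, and 3 control morpholino libraries, numbered 1, 2 and 3. The eggs came from 2 mating pairs and separate embryos were collected, but the sources used here do not say which pair gave which library. Because this kind of morpholino stops protein synthesis, the RNA of its target does not check the label: mov10.L was at 32.8 and 26.0 counts scaled to library size (CPM) in the MOV10 libraries, against 7.03, 2.69 and 5.86 CPM in the control libraries.

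Mitochondrial ribosomes translate the few messages of the mitochondrial genome, all of which encode subunits of the respiratory chain and ATP synthase. Their proteins are encoded in the nucleus, made in the cytoplasm and imported, and they assemble on ribosomal RNAs transcribed inside the organelle. Part of them descend from bacterial ribosomal proteins and keep the bacterial numbers, while others were added in the mitochondrial lineage. The egg supplies the early frog embryo with a large store of mitochondria, and mitochondrial DNA replication stays low during cleavage and gastrulation.

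Gene counts were 11727654 and 11347400 in the MOV10 libraries and 13515787, 12114894 and 11592035 in the control libraries, of which 29891 and 28549, against 44674, 41829 and 43799, fell on the 106 members. At these depths 3 counts correspond to 0.201 to 0.283 CPM. Tissue markers separated the groups. The 27 early gastrula marker models summed to 808 and 1354 CPM in the MOV10 libraries against 4115, 3070 and 3605 CPM in the control libraries, and 20 of 27 fell. The 19 skeletal muscle models summed to 14652 and 16490 CPM in the MOV10 libraries against 90.5, 421 and 188 CPM in the control libraries, and all 16 that were tested rose. The control libraries held 0 counts of both mybpc1 copies. In the MOV10 libraries mybpc1.L was at 0 counts too and mybpc1.S had 3 and 4 counts, and neither copy was tested. Multiciliated cell markers summed to 234 and 186 CPM in the MOV10 libraries, against 23.8, 46.5 and 69.7 CPM in the control libraries, with 4 of 7 risen. Neuron markers reached at most 13.4 CPM and blood markers at most 2.07 CPM. Cardiac markers summed to 79.1 and 118 CPM in the MOV10 libraries against 84.2, 82.2 and 84.0 CPM in the control libraries. Cardiac myl7, nppa and tnni3 were at 0 in every control library, so that the control sums came from myh6 alone. In both MOV10 libraries myl7.S and tnni3.S were at 0 too. The part of these markers in any result given here was not tested, and the morpholino and a difference in developmental progress between the groups cannot be told apart. In whole embryos, fewer cells that express a gene and less RNA per cell cannot be told apart either.

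Mitochondrial ribosomal protein genes changed in both directions. Of the 95 members with enough reads to be tested, 14 rose, 25 fell and 56 did not pass edgeR's quasi-likelihood test at an adjusted p of 0.05. Across all 20049 tested genes, 42.1% were called, 24.4% higher and 17.7% lower, and the 41.1% called among the members lay near that background. The members' changes were smaller. At 2-fold or more, 10 were higher and 18 lower, 29.5% of those tested against 37.4% of all genes. Their log2 fold changes (MOV10 over control) ran from -2.52 to 2.09 with an SD of 1.03, against an SD of 2.36 for all tested genes. The median member was at -0.17, with quartiles at -0.77 and 0.59, and the median gene at 0.08. In CPM, both MOV10 libraries lay above all 3 control libraries for 27 members and below them for 39, where 65.9% of all genes were separated in this way, 35.5% above and 30.4% below.

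The split between higher and lower calls moved with the scaling of the libraries, while its order did not. Scaled to total gene counts, 9 members rose and 28 fell, so that 24.3% of the called members were higher, against 35.9% with TMM scaling. The median of all genes moved to -0.12 under that scaling and the share of higher calls among all genes to 50%, against 58%. With upper-quartile scaling, 9 members rose and 27 fell, with the median of all genes at -0.07. Single libraries weighed on the counts as well. The number of risen members was 8 without control replicate 1 and 9 without control replicate 3. Risen calls over all genes likewise went from 4899 to 4307 and 4348. The median member was at -0.29 without MOV10 replicate 2 and at -0.07 without MOV10 replicate 3, and the median gene at 0.01 and 0.05. None of the 39 called members changed sign in any of the 14 other settings tried. In each of them the groups were already apart in CPM, so that leaving out a library could hardly reverse its sign.

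Sorted by name, both subunits held genes of both kinds. The names place mrps18a and mrps30 in the small subunit here, although in mammals their products sit in the large subunit. In the large subunit 8 of 57 tested members rose and 15 fell, 40.4% in all, with a median log2 fold change of -0.24. In the small subunit 6 of 38 rose and 10 fell, 42.1% in all, with a median of 0.01. Members with bacterial homologs, taken as large-subunit numbers up to 36 and small-subunit numbers up to 21, had 8 risen and 18 fallen genes of 56 tested, 46.4% in all, and a median of -0.21. The mitochondria-specific members had 6 risen and 7 fallen genes of 39 tested, 33.3% in all, and a median near 0. Among L copies 7 rose and 12 fell of 55, 34.5% in all. S copies had 7 risen and 13 fallen genes of 39, 51.3% in all. Over all tested genes 42.1% were called, 24.4% higher and 17.7% lower. The differences between these classes were not tested. The number of risen large-subunit members was 4 without control replicate 1 or 3, where risen calls over all genes went from 4899 to 4307 and 4348. In the small subunit 6 fell without control replicate 2 or 3, where fallen calls over all genes went from 3544 to 3012 and 2809.

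**Figure D1:**
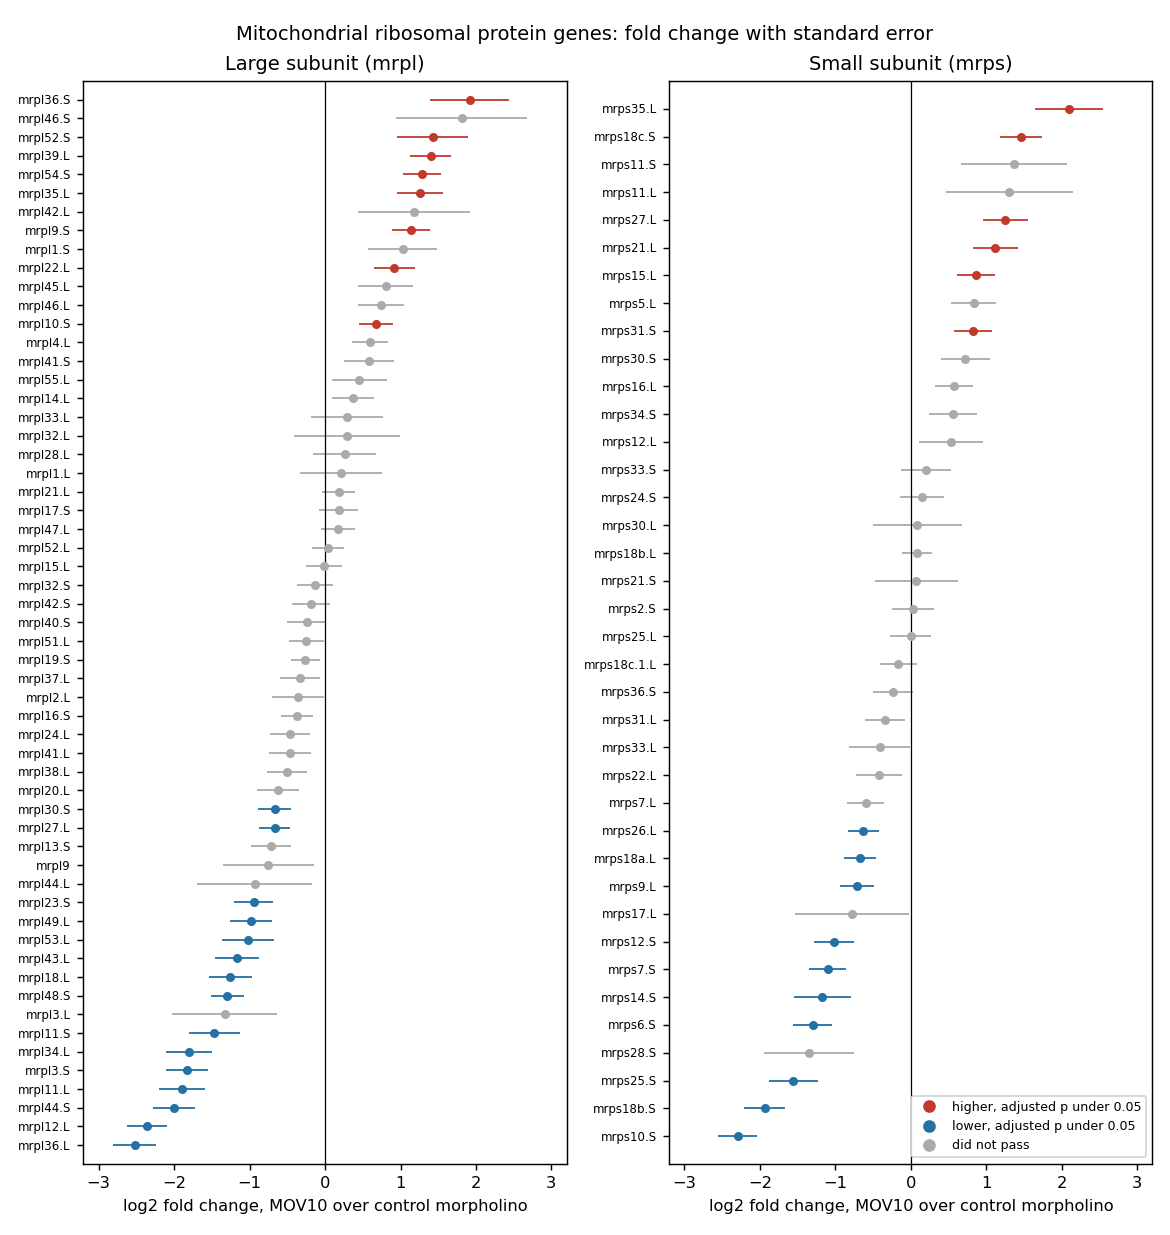
Log2 fold change (MOV10 over control morpholino) with its standard error for the 95 tested members, one row per gene copy. Sorted by name, the large subunit is on the left and the small subunit on the right. Red points rose, blue points fell and grey points did not pass; both panels run from about 2 at the top to below -2 at the bottom, with 8 red and 15 blue points in the large subunit and 6 red and 10 blue in the small subunit.

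Among large-subunit genes, the lowest was mrpl36.L, which encodes a small zinc-binding protein with a bacterial homolog (Xelaev18031331m.g, chr6L:65001797-65003812, minus strand, Xenla9.1). It was at 8.47 and 6.43 CPM in the MOV10 libraries and at 43.5, 36.5 and 48.3 CPM in the control libraries. Every control library was more than 4 times above the higher MOV10 library. The level was 7.45 ± 1.44 CPM in MOV10 morphants (SD, n = 2) and 42.8 ± 5.94 CPM in controls (SD, n = 3), a log2 fold change of -2.52 ± 0.29 (SE, edgeR adjusted p = 0.000376).

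Next came the stalk of the large subunit, the flexible arm that recruits translation factors. The stalk protein gene mrpl12.L, whose product in mammals also binds mitochondrial RNA polymerase, lies at chr9_10L:23925121-23943715 (Xelaev18043758m.g, minus strand). It had 8.56 and 8.98 CPM in the MOV10 libraries, against 41.2, 42.2 and 52.0 CPM in the control libraries. Its log2 fold change was -2.36 ± 0.26 (edgeR adjusted p = 0.000341), and the 2 MOV10 libraries nearly coincided. The stalk base protein gene mrpl11 fell in both copies. For mrpl11.L (chr4L:27682148-27701260, plus strand) the levels were 6.87 and 5.86 CPM in the MOV10 libraries against 25.9, 19.1 and 25.9 CPM in the control libraries, a log2 fold change of -1.89 ± 0.31 (edgeR adjusted p = 0.00183). For mrpl11.S (chr4S:1196234-1205102, minus strand) they were 23.8 and 11.3 CPM against 47.3, 45.4 and 53.2 CPM, a log2 fold change of -1.47 ± 0.34 (edgeR adjusted p = 0.00855). The groups did not overlap in either copy. The other stalk gene, mrpl10.S, whose product anchors the stalk proteins (chr9_10S:2740497-2747132, minus strand), lay on the other side. It had 58.8 and 52.9 CPM in the MOV10 libraries and 29.3, 38.5 and 37.3 CPM in the control libraries, with a log2 fold change of 0.67 ± 0.23 (edgeR adjusted p = 0.0423). That call held in only 3 of the 14 other settings, in which the adjusted p ran from 0.0175 to 0.294, and in none of the 5 that left out a library.

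Another 3 large-subunit genes were among the lowest 8 members. At chr6S:43820418-43871928 (minus strand), mrpl3.S encodes a protein that reaches towards the peptidyl transferase centre. It was at 15.1 and 12.8 CPM in the MOV10 libraries and at 58.3, 38.1 and 51.5 CPM in the control libraries, with a log2 fold change of -1.83 ± 0.28 (edgeR adjusted p = 0.00145). Also a bacterial homolog, mrpl34.L (chr1L:110173611-110177108, plus strand) was at 12.1 and 10.02 CPM in the MOV10 libraries and at 34.2, 31.9 and 50.3 CPM in the control libraries, with a log2 fold change of -1.81 ± 0.31 (edgeR adjusted p = 0.00222). The mitochondria-specific mrpl44.S, which encodes a protein with a ribonuclease III-like fold, lies at chr5S:109566861-109575418 (plus strand). It had 12.1 and 12.6 CPM in the MOV10 libraries against 47.1, 40.1 and 61.5 CPM in the control libraries, with a log2 fold change of -2.004 ± 0.28 (edgeR adjusted p = 0.000935). In all 3 genes the lowest control library exceeded the highest MOV10 library more than 2-fold. The mrpl44.S model overlaps daw1.S on the opposite strand, and the counts used here were those of the gene's own strand.

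The remaining 9 fallen large-subunit genes were mrpl48.S, mrpl18.L, mrpl43.L, mrpl53.L, mrpl49.L, mrpl23.S, mrpl27.L, mrpl30.S and the second mrpl11 copy already given. Their log2 fold changes ran from -1.47 for mrpl11.S to -0.67 for mrpl30.S. The mrpl27 product, whose bacterial homolog reaches the catalytic centre, was represented by mrpl27.L with 65.3 and 70.4 CPM in the MOV10 libraries and 96.6, 124 and 103 CPM in the control libraries. It changed by a log2 fold change of -0.67 ± 0.21 (edgeR adjusted p = 0.0304), and its S copy had no reads in any library. That call held in 9 of the 14 other settings (adjusted p from 0.00817 to 0.282) and was lost without control replicate 2 or 3 or either MOV10 replicate. Leaving out a library also ended the calls of mrpl43.L (MOV10 replicate 2), mrpl23.S (MOV10 replicate 3), mrpl53.L (any but MOV10 replicate 2), mrpl49.L (any but control replicate 3) and mrpl30.S (any but control replicate 2). The falls of mrpl48.S and mrpl18.L passed whichever library was left out.

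In the small subunit the lowest gene was mrps10.S, whose bacterial counterpart sits in the head of the subunit (Xelaev18041327m.g, chr8S:21490933-21501305, plus strand). It was at 13.0 and 11.2 CPM in the MOV10 libraries and at 56.0, 54.2 and 68.5 CPM in the control libraries. Means were 12.1 ± 1.23 CPM in MOV10 morphants (SD, n = 2) and 59.6 ± 7.77 CPM in controls (SD, n = 3), a log2 fold change of -2.30 ± 0.25 (edgeR adjusted p = 0.000324). The model overlaps psmc1.S on the opposite strand. Nearly all reads of the gene came from this copy, since mrps10.L had 2 and 1 counts in the MOV10 libraries and 5, 2 and 0 counts in the control libraries.

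A second group of small-subunit genes fell by between 2-fold and 4-fold. At chr8S:79972005-79985288 (plus strand), mrps18b.S had 7.62 and 9.54 CPM in the MOV10 libraries against 29.3, 33.2 and 36.3 CPM in the control libraries, with a log2 fold change of -1.94 ± 0.28 (edgeR adjusted p = 0.00101). The mitochondria-specific mrps25.S (chr4S:104959363-104964731, minus strand) had 17.9 and 12.8 CPM against 37.1, 60.5 and 37.8 CPM, with a log2 fold change of -1.56 ± 0.32 (edgeR adjusted p = 0.00548). Bacterial homologs mrps6.S, mrps14.S and mrps7.S changed by -1.30, -1.17 and -1.10 on the log2 scale, and the call of mrps14.S ended when any library but control replicate 1 was left out. The gene for the decoding-centre protein, mrps12.S (chr8S:83983930-83985806, plus strand), had 21.5 and 16.7 CPM in the MOV10 libraries and 38.2, 33.1 and 44.9 CPM in the control libraries. Its log2 fold change of -1.02 ± 0.26 (edgeR adjusted p = 0.0147) no longer passed without MOV10 replicate 3 (-0.86, adjusted p = 0.0859, the highest of a range from 0.00229 over the other settings).

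The other 3 fallen genes with small-subunit names changed less. They were mrps9.L at -0.71, mrps18a.L at -0.68 and mrps26.L at -0.63 on the log2 scale. The mitochondria-specific mrps26.L had 198 and 216 CPM in the MOV10 libraries, against 272, 309 and 381 CPM in the control libraries, so that the groups were apart by less than the spread among controls, with an SE of 0.20 and an edgeR adjusted p of 0.0361. Without control replicate 2 or 3 or MOV10 replicate 2 each of the 3 lost its call, and without MOV10 replicate 3 mrps18a.L and mrps26.L did so too.

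Of the genes that rose, mrps35.L, a mitochondria-specific small-subunit gene (Xelaev18016740m.g, chr3L:4676220-4695167, plus strand), stood highest. It was at 9.97 and 9.83 CPM in the MOV10 libraries and at 1.47, 2.12 and 3.39 CPM in the control libraries, with a log2 fold change of 2.09 ± 0.45 (edgeR adjusted p = 0.00675). Both MOV10 libraries were almost 3 times above the highest control. On the opposite strand the model overlaps LOC100492908.L. The S copy, mrps35.S, had 0 counts in both MOV10 libraries and 2, 8 and 4 counts in the control libraries, too few to be tested.

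Another 3 small-subunit genes rose more than 2-fold. The bacterial homolog mrps18c.S (chr1S:109196171-109202443, minus strand) had 27.7 and 29.8 CPM in the MOV10 libraries and 11.4, 8.15 and 11.8 CPM in the control libraries, with a log2 fold change of 1.45 ± 0.28 (edgeR adjusted p = 0.00388). At chr1L:185939606-185992727 (minus strand), mrps27.L, which encodes a pentatricopeptide repeat protein, a class of RNA-binding proteins, had 25.1 and 26.6 CPM against 12.5, 7.74 and 12.4 CPM, with a log2 fold change of 1.25 ± 0.30 (edgeR adjusted p = 0.0105). The bacterial homolog mrps21.L had 22.1 and 18.7 CPM against 7.499, 9.37 and 11.3 CPM, with a log2 fold change of 1.12 ± 0.30 (edgeR adjusted p = 0.0165), and an adjusted p of 0.0847 without MOV10 replicate 2, in a range from 0.00319. In each of them the 2 MOV10 libraries were close to one another and above every control. The last 2 risen small-subunit genes, mrps15.L at 0.86 and mrps31.S at 0.82 on the log2 scale, rose by less. The first was lost without control replicate 1 or 3 or MOV10 replicate 2, and the second held only without control replicate 3 among those fits.

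In the large subunit 6 genes rose more than 2-fold. The largest fold change was that of mrpl36.S (chr6S:55179587-55183927, plus strand), with 8.84 and 5.29 CPM in the MOV10 libraries and 1.21, 2.85 and 1.57 CPM in the control libraries, a log2 fold change of 1.91 ± 0.53 (edgeR adjusted p = 0.0190). The call ended without control replicate 1 (1.67, adjusted p = 0.0532), without control replicate 3 (1.81, adjusted p = 0.0575) and without MOV10 replicate 2 (1.49, adjusted p = 0.124), in a range of adjusted p from 0.00576 to 0.124. The copy rests on few reads, 94 and 56 counts in the MOV10 libraries against 18, 35 and 19 counts in the control libraries.

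A firmer rise was that of mrpl39.L, whose product is related to threonyl-tRNA synthetase (chr2L:17922564-17980230, plus strand). It had 20.8 and 22.3 CPM in the MOV10 libraries and 8.30, 7.58 and 8.59 CPM in the control libraries, with a log2 fold change of 1.40 ± 0.27 (edgeR adjusted p = 0.00412). The mitochondria-specific mrpl54.S (chr1S:78253583-78258919, minus strand, overlapping rax2.S on the opposite strand) had 42.3 and 35.6 CPM against 13.6, 17.5 and 17.0 CPM, with a log2 fold change of 1.28 ± 0.25 (edgeR adjusted p = 0.00422). The bacterial homolog mrpl9.S had 36.4 and 31.8 CPM against 13.7, 15.4 and 17.5 CPM, with a log2 fold change of 1.14 ± 0.25 (edgeR adjusted p = 0.00694). These 3 genes passed whichever library was left out, and their MOV10 values were about 2 to 3 times the control values. A second model named mrpl9, without an ending, leaned the other way on few reads and did not pass. It had 1.03 and 2.08 CPM against 2.54, 3.18 and 2.15 CPM (log2 fold change -0.75 ± 0.60, edgeR adjusted p = 0.346).

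The other 2 depended on single libraries. At chr1L:10191058-10197909 (minus strand, overlapping polr1a.L on the opposite strand), the bacterial homolog mrpl35.L had 33.5 and 29.2 CPM in the MOV10 libraries and 9.31, 13.0 and 17.1 CPM in the control libraries. Its log2 fold change of 1.25 ± 0.31 (edgeR adjusted p = 0.0113) became 1.15 (adjusted p = 0.0531, in a range from 0.00129) without MOV10 replicate 2. For the mitochondria-specific mrpl52.S (chr1S:115378623-115381301, plus strand) the levels were 19.1 and 20.6 CPM against 3.82, 12.7 and 5.70 CPM, a log2 fold change of 1.42 ± 0.47 (edgeR adjusted p = 0.0396). Control replicate 2 lay apart from the other controls in this gene. Without it the log2 fold change was 2.06 (adjusted p = 0.00619), whereas leaving out control replicate 1 or 3 or either MOV10 replicate gave 1.11 to 1.47 with adjusted p from 0.0803 to 0.118. The last risen large-subunit genes were mrpl22.L, with a log2 fold change of 0.92 and a call that held only without control replicate 2 among the fits with a library left out, and mrpl10.S.

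**Figure D2:**
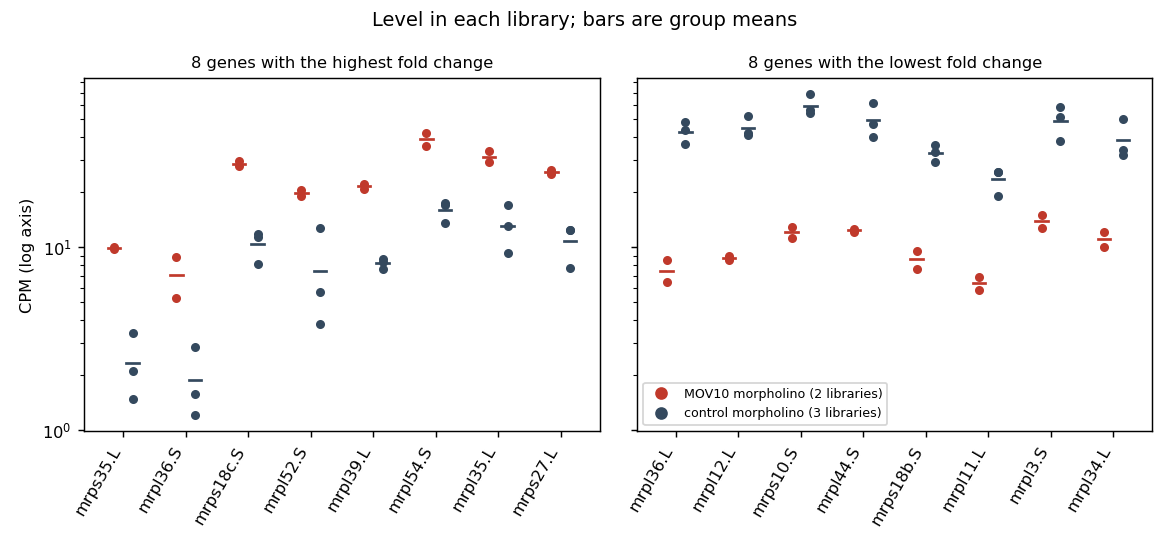
CPM after TMM scaling on a log axis, one point per library, for the 8 members with the lowest and the 8 with the highest log2 fold change among those called; MOV10 libraries are red and stand left of the control libraries. The 2 groups do not overlap in any of the 16 genes, from mrpl36.L with 8.47 and 6.43 CPM against 36.5 to 48.3 CPM to mrps35.L with 9.97 and 9.83 CPM against 1.47 to 3.39 CPM.

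Several members with many reads did not pass the test. Most reads of any such member fell on mrpl14.L, whose product binds an assembly factor of the large subunit in mammals, and on mrps18b.L. Levels of mrpl14.L were 172 and 189 CPM in the MOV10 libraries and 89.5, 159 and 171 CPM in the control libraries, with a log2 fold change of 0.37 ± 0.28 (edgeR adjusted p = 0.322). One control library was low and the other two were close to the MOV10 values. For mrpl19.S they were 84.3 and 81.0 CPM against 89.8, 102 and 106 CPM (log2 fold change -0.26 ± 0.19, edgeR adjusted p = 0.306), and for mrpl16.S 83.4 and 66.3 CPM against 101, 85.3 and 104 CPM (log2 fold change -0.37 ± 0.21, edgeR adjusted p = 0.195). In the last 2 genes both MOV10 libraries lay below every control without passing. CPM is not corrected for transcript length, so these values are not compared between genes.

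Vertebrate mitochondria have 3 proteins, from mrps18a, mrps18b and mrps18c, that descend from 1 bacterial ribosomal protein, and in mammals the mrps18a product sits in the large subunit in spite of its name. The 5 models of this family did not move together. As given, mrps18b.S fell and mrps18c.S rose. The mrps18b.L copy was at 175 and 156 CPM in the MOV10 libraries and at 136, 157 and 176 CPM in the control libraries, with a log2 fold change of 0.08 ± 0.20 (edgeR adjusted p = 0.766). The model named mrps18c.1.L (Scaffold108:18364-27756, plus strand) was at 49.6 and 38.2 CPM against 44.2, 44.8 and 58.6 CPM, with a log2 fold change of -0.17 ± 0.24 (edgeR adjusted p = 0.619). For mrps18a.L (chr5L:23816959-23819979, minus strand), MOV10 morphants had 106 and 109 CPM against 141, 197 and 178 CPM in controls, a change of -0.68 ± 0.21 on the log2 scale (edgeR adjusted p = 0.0311). This call held in 9 of the 14 other settings (adjusted p from 0.00713 to 0.274) and in 1 of the 5 that left out a library.

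The product of mrps30 also sits in the large subunit in mammals. Neither copy passed. Levels of mrps30.L were 27.2 and 17.4 CPM in the MOV10 libraries and 6.23, 35.5 and 21.5 CPM in the control libraries, with a log2 fold change of 0.08 ± 0.59 (edgeR adjusted p = 0.926), and its control libraries spread more than 5-fold. Those of mrps30.S were 13.5 and 15.3 CPM against 7.77, 11.2 and 7.27 CPM, with a log2 fold change of 0.72 ± 0.32 (edgeR adjusted p = 0.107). Among the unpassed members the widest error was that of mrpl46.S, with 95 and 14 counts in the MOV10 libraries and 7, 29 and 19 counts in the control libraries and a log2 fold change of 1.81 ± 0.87 (edgeR adjusted p = 0.126). Its model overlaps that of mrps11.S by 70 bp on the opposite strand, while the L copies of the same 2 genes lie 93 bp apart.

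Whether L and S homeologs responded differently was tested directly. In a fit of both copies with the library as a block, the difference between their log2 fold changes (L minus S) was called for 6 of the 19 member pairs with enough reads in both copies, 31.6%, where 24.2% of 5029 pairs in the whole genome were called. In 3 pairs the L copy gained relative to the S copy and in 3 the S copy gained. The median size of the difference was 1.09 on the log2 scale for members and 0.86 for all pairs. Taken copy by copy, 9 pairs had exactly 1 copy called, 8 had none, mrpl11 had both copies lower and mrpl36 had 1 copy higher and 1 lower. Only 3 pairs were called without control replicate 3 or without MOV10 replicate 2.

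**Figure D3:**
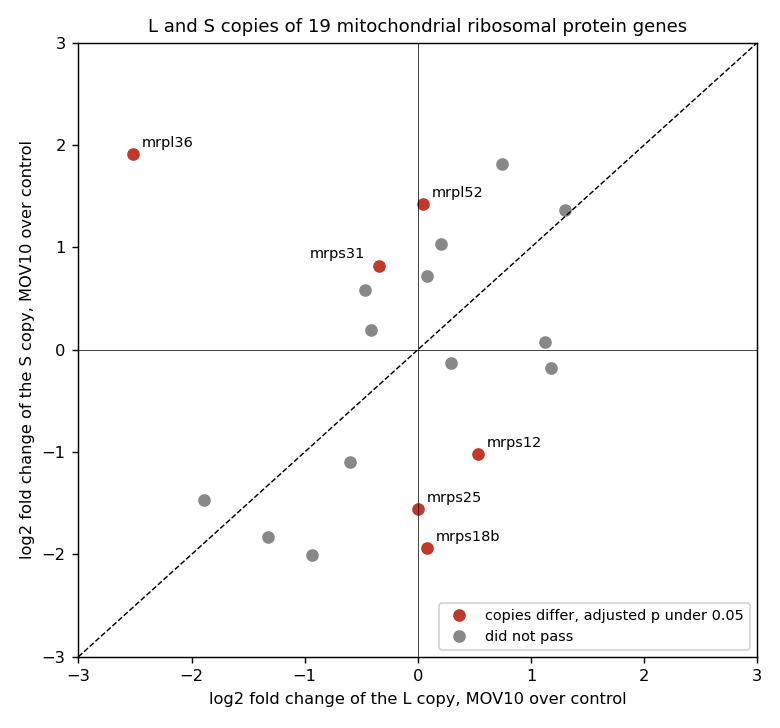
Log2 fold change (MOV10 over control) of the L copy on the horizontal axis and of the S copy on the vertical axis for the 19 fitted pairs, with a dashed line where both copies change alike. Red points are the 6 pairs whose copies differed at an adjusted p under 0.05; mrpl36 lies far from the line at -2.52 for L and 1.91 for S.

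The largest difference was that of mrpl36, where the 2 copies moved in opposite directions. In counts the L and S copies had 90 and 94 reads in MOV10 replicate 2 and 68 and 56 in MOV10 replicate 3, against 650 and 18, 448 and 35, and 585 and 19 reads in control replicates 1, 2 and 3. The L copy therefore held 48.9% of the reads of both copies in MOV10 replicate 2 (Wilson 95% interval 41.8 to 56.1%) and 54.8% in MOV10 replicate 3 (46.1 to 63.3%). In the control libraries it held 97.3% (95.8 to 98.3%), 92.8% (90.1 to 94.7%) and 96.9% (95.1 to 98.0%). The MOV10 intervals lay far below all control intervals. The L minus S difference was -4.45 ± 0.52 on the log2 scale, a 21.9-fold change of the copies' ratio (edgeR adjusted p = 0.00122).

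In the mrps18b pair the shift came from the S copy, since the L copy did not pass. L reads made up 95.8% and 94.2% of the pair in the MOV10 libraries and 82.2%, 82.6% and 82.9% in the control libraries, with 3 nearly equal controls. The L minus S difference was 2.03 ± 0.22 (edgeR adjusted p = 0.000978). In the mrps25 pair the L share was higher in both MOV10 libraries, above an equal split beyond counting error in replicate 3 and not in replicate 2. L reads were 52.3% (Wilson 95% interval 47.4 to 57.1%) and 60.5% (55.3 to 65.6%) in the MOV10 libraries and 31.4%, 28.5% and 31.9% in the control libraries, where the highest upper bound was 35.5%. Here mrps25.L stayed at 19.6 and 19.6 CPM against 17.0, 24.1 and 17.7 CPM (log2 fold change -0.002 ± 0.27, edgeR adjusted p = 0.996) while mrps25.S fell, and the difference was 1.55 ± 0.31 (edgeR adjusted p = 0.00881). These pairs and mrpl36 were called whichever library was left out.

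The other 3 called pairs were less firm. L reads of mrps12 were 29.3% and 22.0% of the pair in the MOV10 libraries and 11.9%, 11.2% and 9.78% in the control libraries, and the difference was 1.49 ± 0.35 (edgeR adjusted p = 0.0188). Its L copy, at 8.94 and 4.72 CPM against 5.16, 4.16 and 4.87 CPM, did not pass alone (log2 fold change 0.53 ± 0.42, edgeR adjusted p = 0.346). The call ended without control replicate 3 (1.40, adjusted p = 0.0621) and without MOV10 replicate 2 (1.20, adjusted p = 0.0958), in a range from 0.0102 to 0.0958. For mrps31, L reads were 32.4% and 31.8% in the MOV10 libraries and 50.4%, 55.1% and 49.6% in the control libraries, with a difference of -1.18 ± 0.31 (edgeR adjusted p = 0.0289). Although the groups did not overlap, that call was lost whichever library was left out, with adjusted p from 0.059 to 0.092 in those fits and down to 0.015 in other settings. For mrpl52, L reads were 82.5% and 80.6% in the MOV10 libraries and 94.9%, 87.7% and 94.3% in the control libraries, with a difference of -1.53 ± 0.41 (edgeR adjusted p = 0.0310). It held only without control replicate 2 among those 5 fits (adjusted p from 0.00557 to 0.126). Just short of the threshold were mrpl42 at 1.39 ± 0.45 (edgeR adjusted p = 0.0556) and mrpl41 at -1.09 ± 0.39 (edgeR adjusted p = 0.0765).

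**Figure D4:**
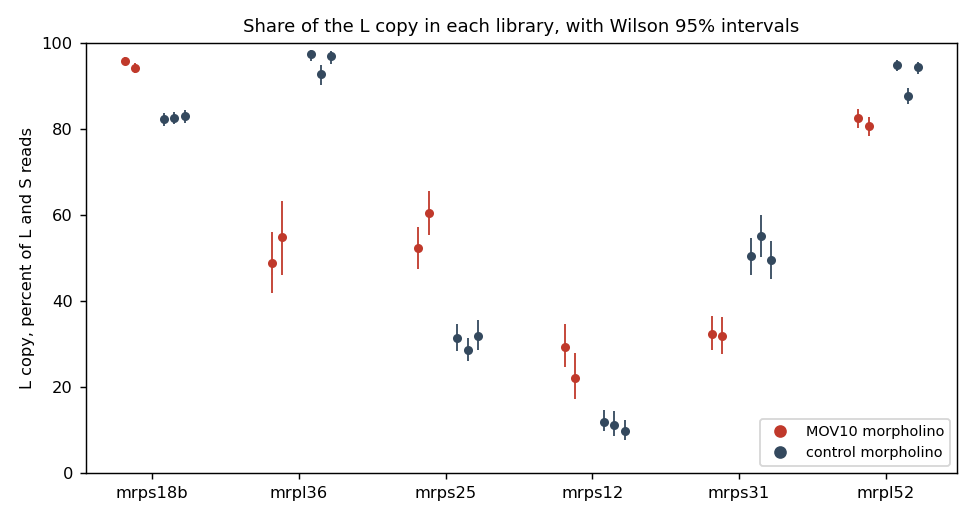
Share of L reads among the reads of both copies, in percent, for the 6 called pairs, one point per library with its Wilson 95% interval, MOV10 libraries in red left of the control libraries. MOV10 libraries lie above the controls for mrps18b, mrps25 and mrps12 and below them for mrpl36, mrps31 and mrpl52, and mrpl36 shows the widest gap, 48.9 and 54.8% against 92.8 to 97.3%.

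Part of the copies gave next to no reads. Of the 106 members 11 were not tested, and 4 of them, mrpl17.L, mrpl27.S, mrps23.S and mrps24.L, had 0 counts in all 5 libraries, which allows up to 3 counts, or 0.201 to 0.283 CPM. For 10 names only 1 of the 2 copies was tested. The untested mrpl40.L had 3 and 3 counts in the MOV10 libraries and 1, 31 and 0 counts in the control libraries, so that nearly all its reads came from control replicate 2. The others had at most 11 counts in any library. Reads that map equally well to several places are not counted in this layout, so a copy that is nearly identical to its homeolog may lose reads. Another gene model overlaps 22 members, 19 of them on the other strand. The 3 overlapped on the same strand were mrps6.S (by slc5a3.S), mrpl23.S and mrpl16.S, where strand does not separate the reads. Of these, mrps6.S and mrpl23.S were called lower.

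Summed over all 106 models, mitochondrial ribosomal protein RNA amounted to 2812 and 2698 CPM in the MOV10 libraries and to 2991, 3409 and 3618 CPM in the control libraries. Both MOV10 libraries lay below every control. The means were 2755 ± 80.8 CPM in MOV10 morphants (SD, n = 2) and 3339 ± 319 CPM in controls (SD, n = 3), a ratio of 0.825 (exact two-sided permutation test, p = 0.2, where 2 libraries against 3 cannot give less than 0.1). Sorted by name, large-subunit genes gave 1609 and 1532 CPM against 1701, 1877 and 2042 CPM. Small-subunit genes gave 1203 and 1166 CPM against 1290, 1532 and 1576 CPM (exact permutation p = 0.2 for each). The balance of the subunits was nearly the same, with small-subunit genes at 42.8% and 43.2% of the sum in the MOV10 libraries and 43.1%, 44.9% and 43.6% in the control libraries (exact permutation p = 0.4).

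Models named as cytoplasmic ribosomal proteins (symbols beginning with rpl or rps and a digit, except rps6k, or with rplp) mostly rose. Of 109 tested models 82 rose and 1 fell, 76.1% against 42.1% of all genes, with a median log2 fold change of 0.73 (0.54 when scaled to total gene counts). Most of these changes were under 2-fold. At 2-fold or more, 19 were higher and 1 lower, 18.3% against 37.4% of all genes. The fallen model, rps19bp1.L, was at 35.6 CPM in MOV10 morphants and 123 CPM in controls on average (log2 fold change -1.79, edgeR adjusted p = 0.000614). It encodes a protein that binds a ribosomal protein and is included by its name alone. With TMM scaling, no ribosomal protein of this list was thus called lower. Under upper-quartile or total-count scaling 2 models of the list were called lower. The sum of the list was 117823 and 101491 CPM in the MOV10 libraries and 56057, 75639 and 67109 CPM in the control libraries, a ratio of 1.65 (exact permutation p = 0.1). Mitochondrial ribosomal protein reads thus equalled 2.39% and 2.66% of the cytoplasmic ones in the MOV10 libraries and 5.34%, 4.51% and 5.39% in the control libraries. This ratio does not depend on the scaling of the libraries. It averaged 2.52 ± 0.192% in MOV10 morphants (SD, n = 2) and 5.08 ± 0.495% in controls (SD, n = 3), 0.497 of the control value, and the exact permutation test gave p = 0.1, the smallest it can give here. The number of risen cytoplasmic genes was 57 without control replicate 3 and 54 with upper-quartile scaling. Risen calls over all genes went from 4899 to 4348 and 4525 in these settings. Among tests for any change that kept both MOV10 libraries, 54 was the lowest number. It was lower still without MOV10 replicate 2, a fit that leaves 1 MOV10 library, and so were risen calls over all genes. The median log2 fold change of the list was 0.60 without MOV10 replicate 2.

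**Figure D5:**
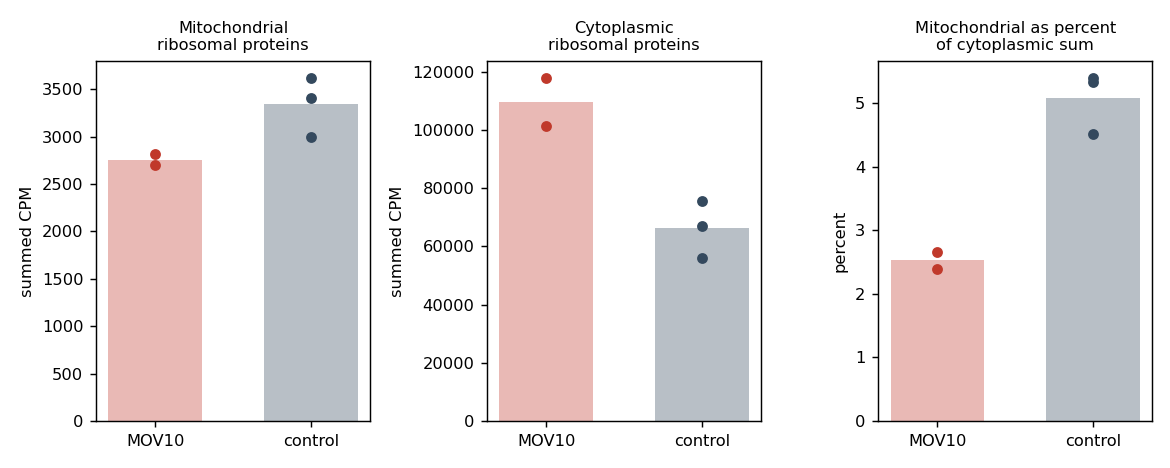
Summed CPM of the mitochondrial ribosomal proteins, summed CPM of the cytoplasmic ribosomal proteins, and the mitochondrial sum as a percentage of the cytoplasmic sum; bars are group means from 0, points are libraries, MOV10 left of control. The percentage is 2.39 and 2.66% in the MOV10 libraries and 4.51 to 5.39% in the control libraries.

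Other genes tied to mitochondrial translation were read from the same fit, 99 models in 7 lists. The lists reach from ribosome proteins under other names to 17 models of nuclear regulators of mitochondrial genes. Of the 92 tested, 23 rose and 13 fell, 39.1% in all, near the 42.1% called over all genes (24.4% higher and 17.7% lower). The median log2 fold change of all 7 lists was 0.20. The regulators gave 1 of the risen and 5 of the fallen genes, with a median of -0.64. Over the 7 lists, the number that rose was 18 without control replicate 1 or 3. The number that fell was 7 without control replicate 1 and 8 without control replicate 2. Fallen calls over all genes went from 3544 to 2846 and 3012 in the last 2 fits. Proteins of the mitochondrial ribosome that carry other names had 2 risen and 3 fallen genes of 8 tested, 62.5%, and a median of 0.02. Their sum was 316 and 269 CPM in the MOV10 libraries and 214, 247 and 221 CPM in the control libraries, a ratio of 1.29 (exact permutation p = 0.1), and its difference from the members was not tested. The small-subunit GTP-binding protein gene dap3.L rose, at 141 and 109 CPM in the MOV10 libraries against 50.4, 56.6 and 53.8 CPM in the control libraries (log2 fold change 1.23 ± 0.20, edgeR adjusted p = 0.00212). The other riser, ptcd3.L, a pentatricopeptide repeat protein of the small subunit, was at 63.6 and 76.2 CPM against 32.1, 52.2 and 25.4 CPM (log2 fold change 0.93 ± 0.31, edgeR adjusted p = 0.0403). It was named after its values were seen. Small-subunit genes chchd1.L and aurkaip1.S and the large-subunit gene gadd45gip1.S fell by 1.20, 2.26 and 0.63 on the log2 scale. These 3 calls rested on single libraries. Without MOV10 replicate 3, chchd1.L had an adjusted p of 0.0977 (range 0.00354 to 0.0977) and aurkaip1.S 0.0865 with a log2 fold change of -1.57. Without MOV10 replicate 2 the value for aurkaip1.S was -3.70, and its call was also lost without control replicate 1 or 2 (range 0.00764 to 0.0865). The call for gadd45gip1.S was lost whichever library was left out.

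Translation factors had 2 risen and 2 fallen genes of 12 tested, 33.3%, against 42.1% of all genes. Among them gfm2.L, which encodes a GTPase of ribosome recycling, had 17.6 and 23.5 CPM in the MOV10 libraries against 5.76, 4.89 and 7.19 CPM in the control libraries (log2 fold change 1.79 ± 0.32, edgeR adjusted p = 0.00284). The elongation factor gene tsfm.S rose by 1.38 ± 0.30 on the log2 scale (edgeR adjusted p = 0.00688). The release factor gene mtrf1.S was at 14.5 and 10.3 CPM against 30.9, 30.9 and 34.1 CPM (log2 fold change -1.37 ± 0.27, edgeR adjusted p = 0.00466), and the recycling factor gene mrrf.L changed by -1.11 ± 0.27 (edgeR adjusted p = 0.0102). Without MOV10 replicate 3 the adjusted p was 0.055 for tsfm.S, in a range from 0.000239, and 0.0532 for mrrf.L, in a range from 0.000833. Genes of ribosome assembly and ribosomal RNA modification had 7 risen and 2 fallen of 26 tested, 34.6%, with a median of 0.21. The GTPase gene mtg2.L, which acts in large-subunit assembly, had 107 and 115 CPM in the MOV10 libraries and 31.2, 36.8 and 34.7 CPM in the control libraries (log2 fold change 1.70 ± 0.20, edgeR adjusted p = 0.000437). The 2 helicase genes of the same pathway diverged. The first, dhx30.L, had 17.0 and 19.2 CPM against 4.42, 4.73 and 3.06 CPM (log2 fold change 2.15 ± 0.33, edgeR adjusted p = 0.00153), and the second, ddx28.L, had 13.0 and 18.4 CPM against 57.0, 54.8 and 49.3 CPM (log2 fold change -1.77 ± 0.26, edgeR adjusted p = 0.00119). The ribosomal RNA methyltransferase gene mettl15.S changed by -1.81 ± 0.32 (edgeR adjusted p = 0.00296).

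Upstream of the ribosome, the list of mitochondrial transcription and messenger RNA stability had 3 risen and no fallen genes of 9 tested, 33.3%, against 42.1% of all genes. The mitochondrial RNA polymerase gene polrmt.L had 48.4 and 41.6 CPM in the MOV10 libraries against 16.1, 16.5 and 15.3 CPM in the control libraries (log2 fold change 1.496 ± 0.23, edgeR adjusted p = 0.00145). Both copies of lrpprc, whose product stabilises mitochondrial messages, rose. In lrpprc.L the levels were 221 and 224 CPM against 86.4, 109 and 90.4 CPM (log2 fold change 1.23 ± 0.19, edgeR adjusted p = 0.00149), and lrpprc.S changed by 1.16 ± 0.25 (edgeR adjusted p = 0.00689). Mitochondrial tRNA synthetases had 7 risen and 1 fallen gene of 19 tested, with a median of 0.82, and the 42.1% called equalled the share over all genes. Examples were cars2.L at 9.502 and 7.56 CPM against 1.94, 2.69 and 2.40 CPM (log2 fold change 1.86 ± 0.41, edgeR adjusted p = 0.00706) and aars2.L with a log2 fold change of 1.44 ± 0.36 (edgeR adjusted p = 0.0132), whose adjusted p was 0.0575 without MOV10 replicate 2, in a range from 0.00187. For tars2.L, which the annotation table pairs with the human symbol TARS, the levels were 49.4 and 37.0 CPM against 2.01, 0.244 and 7.27 CPM. Its log2 fold change of 3.77 ± 0.84 (edgeR adjusted p = 0.00770) was 5.20 without control replicate 3. The fallen gene, pars2.L, changed by -1.04 ± 0.27 (edgeR adjusted p = 0.0142), and its call was lost without MOV10 replicate 2 (adjusted p = 0.0693, in a range from 0.00261). Of 2 membrane insertion genes, oxa1l.L, the insertase of the inner membrane, rose by 0.73 ± 0.20 on the log2 scale (edgeR adjusted p = 0.0199). That call held in 6 of the 14 other settings, only 1 of them a fit with a library left out (adjusted p from 0.0028 to 0.2).

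Nuclear regulators known to act on genes for mitochondrial proteins had 1 risen and 5 fallen genes of 16 tested, 37.5% against 42.1% of all genes, with a median log2 fold change of -0.64. The coactivator gene ppargc1a.L had 0 and 1 counts in the MOV10 libraries and 14, 14 and 21 counts in the control libraries. Scaled to library size, the control libraries together held 26.4 times as many reads (95% counting interval 4.53 to 1070). The edgeR fit gave a log2 fold change of -4.47 ± 1.23 (adjusted p = 0.0186). With so few reads, that value ran from -6.998 to -3.62 when single libraries were left out. The call held in only 9 of the 13 other settings in which this copy was tested. The other copy, ppargc1a.S, was also called lower, at 0.188 and 0.850 CPM against 3.35, 2.69 and 2.56 CPM (log2 fold change -2.44 ± 0.77, edgeR adjusted p = 0.0319). The related ppargc1b.L was on the other side, at 7.43 and 10.8 CPM in the MOV10 libraries and 2.08, 1.87 and 0.165 CPM in the control libraries (log2 fold change 2.71 ± 0.74, edgeR adjusted p = 0.0186), with an adjusted p of 0.0653 without MOV10 replicate 3, in a range from 0.00317. The transcription factor gene gabpa.L was at 2.82 and 3.21 CPM in the MOV10 libraries against 11.8, 9.54 and 5.04 CPM in the control libraries (log2 fold change -1.54 ± 0.48, edgeR adjusted p = 0.0301). Another transcription factor gene, nrf1.L, was at 5.64 and 5.20 CPM against 13.5, 9.62 and 11.6 CPM (log2 fold change -1.09 ± 0.34, edgeR adjusted p = 0.0316). Each of these calls held in only 1 of the 5 fits with a library left out.

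The authors' deposited table of their own comparison lists 95 members. At a false discovery rate under 0.05 it has 8 of them higher and 15 lower, where 33.1% of its 19421 genes pass. All 23 were also called here, and the largest difference between a log2 fold change of the authors' deposited table and the one fitted here was 0.00124. Both comparisons used the same libraries, so this match is not independent evidence. The main test here asks for any change. Against a 1.5-fold change with glmTreat, the fit here likewise had 8 members higher and 15 lower. That setting called 3982 of all genes higher and 2424 lower, close to the 3975 and 2461 of the deposited table. Whether the authors' test asked for such a change was not tested.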

How the data were processed

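RNA was extracted with TRIZOL and sequenced after a stranded TruSeq mRNA preparation, per the labels' protocols. Tools named in the submitters' processing notes are edgeR 3.15.2, STAR 2.5.2a, FastQC 0.11.4 and bcl2fastq 2.17.1.14. The deposited count files hold whole-number read counts per Xenbase gene model on Xenla9.1 in the layout of STAR, and the reverse-strand column was used. Their 4 summary lines, which name no gene, held 89.6 to 92.5% of all reads per library and were left out. Of all reads, 29.8 to 40.4% were unmapped, 48.6 to 57.1% lay outside annotated features and 2.02 to 5.53% mapped to several places. The 5.53% was that of MOV10 replicate 2, against at most 2.31% in any other library, and its effect on the results was not tested. The deposited comparison table gives, per the file headers, log2 fold changes, a signed fold change treated as a score, and p-values with false discovery rates from a test that the sources used here do not name.

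Counts were fitted in R 4.3.3 with edgeR 4.0.16: filterByExpr (minimum count 10, 20049 genes kept), TMM scaling, the quasi-likelihood test (two-sided, group as the only term) and Benjamini-Hochberg adjustment over all tested genes, threshold 0.05. The SE is the log2 fold change divided by the square root of F. CPM uses TMM-scaled library sizes. The test of L against S stacked both copies with the library as a block, a minimum mean of 10 counts per copy and library, and adjustment over 5029 pairs. The scripts were tested on simulated data. Intervals and floors cover counting error only. Libraries are called biological replicates of separate embryos, and p-values measure the spread between them. The mating pair behind each library is not known, so the p-values do not separate the spread between pairs.

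Members, gene lists and naming rules were chosen with earlier results of these data known. The rule named the 8 highest and 8 lowest called members whose groups did not overlap, the 4 unpassed members with the highest mean CPM, both copies of the 4 pairs with the smallest adjusted p, all copies of mrpl10, mrpl12, mrps12, mrps18a, mrps18b, mrps18c and mrps30, and up to 4 called genes per partner list. All other called members are named for completeness. Members named beyond this were chosen after their values were seen. Alternatives were RLE, upper-quartile and total-count scaling, no filter and a minimum count of 50, glmTreat against 1.5-fold, counts without strand, each library left out, a replicate block and DESeq2 1.42.0.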

Additional observations from a re-analysis of the deposited data

How the results depend on the processing

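Every called member kept its direction in each of the 14 other settings, which says little for genes whose groups were already apart. In the settings that kept both MOV10 libraries, 23 to 39 of the 39 stayed past the threshold. For single genes and pairs named by rule, 710 values stayed on their side of the threshold and 84 lost the call. With upper-quartile scaling, 9 members rose, 5 of them in the large subunit, and the median log2 fold change was -0.31. With total-count scaling, 9 members rose, 5 of them in the large subunit, the median was -0.36 and the log2 ratio of the summed CPM was -0.47, against -0.28 with TMM scaling. The median was -0.29 without a filter and -0.083 with a minimum count of 50, where fewer genes were tested. Tested against a 1.5-fold change with glmTreat, which asks for a larger change, 8 members rose and 15 fell, with 5 risen in the large subunit, 3 risen and 5 fallen in the small subunit and 7 fallen partner genes. With single libraries left out, 6 to 13 members rose and 16 to 22 fell. In the large subunit 3 to 7 rose and 10 to 12 fell, in the small subunit 3 to 6 rose and 6 to 10 fell, and among the partner genes 14 to 20 rose and 6 to 9 fell. The median ran from -0.29 to -0.072, and 3 to 6 homeolog pairs were called. The cause of these shifts was not tested.

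Replicate numbers 2 and 3 are shared between the groups, but the labels name no litter or batch behind them, and the replicate 2 minus replicate 3 differences of the 2 groups correlated at 0.052 across genes. With these numbers as a replicate block on libraries 2 and 3, 9 members rose and 22 fell, 3 small-subunit members rose and 7 partner genes fell. Over all genes 4230 rose and 2903 fell in that fit. Having 2 libraries in 1 group limits the precision of every value, and copies near 3 counts cannot be compared at this depth.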
